A study of Mus musculus with 14 samples.

Results

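The Zfp genes are the mouse zinc finger protein genes that carry a serial number in their symbol. They were taken here as the rows of the deposited gene table whose symbol begins with Zfp and a digit and whose mean over the 14 libraries was at least 1 RPKM (reads mapped to a gene, scaled by its length and by the mapped reads of the library). Of 22295 rows, 369 had such a symbol, and the 220 genes described here met both conditions. They were chosen by their symbol and selected on the mean level over all libraries, so their being expressed is not a result. Just above the threshold lay Zfp365, Zfp945 and Zfp955a, at 1.00, 1.01 and 1.02 RPKM, and just below it a second Zfp319 row, Zfp599 and Zfp940, at 0.982, 0.977 and 0.966 RPKM.

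The libraries were made from polyadenylated RNA of mouse splenic B cells, isolated by depleting other cells and kept for 96 h in culture under LPS (5 µg/ml) plus IL-4 (10 ng/ml), a stimulus that drives B cells to divide and switch antibody class. There were 5 libraries of PU.1 KI cells (genotype PU.1[155-/155-], in which both copies of the gene for the transcription factor PU.1 have lost their miR-155 site), 5 of miR-155 KO cells (genotype miR-155[-/-]) and 4 of wild-type (WT) cells, which the design calls biological replicates. All 3 genotypes had the same culture and stimulus; there were no unstimulated cells, and the sources used here do not state strain, age or sex. The comparisons ask which Zfp transcripts differ when B cells lack miR-155 and when only its site in PU.1 is lost.

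Most Zfp proteins carry tandem C2H2 fingers, each a short loop held by a zinc ion that reads a few bases of DNA. Many also carry a KRAB domain, which recruits Trim28, Setdb1 and histone deacetylases to silence chromatin, in particular at retroviral and transposon sequences. Such genes often lie side by side in arrays that arose by duplication. A few members belong to other families. Zfp36, Zfp36l1 and Zfp36l2 have CCCH fingers that bind AU-rich mRNA and bring in the CCR4-NOT deadenylase, and others act on ribosomes, splicing or the spindle. miR-155 is a microRNA induced in activated B cells that lowers mRNAs with a match to its seed in their 3′ UTR.

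Candidate sites for miR-155 were read from the letters alone. The mature miR-155-5p is shown with its seed, bases 2 to 8, in capitals (RefSeq, GRCm38.p6, chr16:84714143-84714165, + strand).
miR-155-5p: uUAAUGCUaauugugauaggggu
Of the 220 Zfp genes, 209 had a 3′ UTR in GENCODE M21 (GRCm38) by Ensembl ID, and the longest one was searched on the transcript's strand for AGCATTAA (8mer), AGCATTA (7mer-m8) and GCATTAA (7mer-A1). A match inside an 8mer was counted once, as the 8mer. An 8mer was present in 13 genes and only a 7mer in 30, that is 6.22% and 14.4% of the 209, against 3.34% and 10.3% of the 9400 tested rows with a 3′ UTR. The Zfp 3′ UTRs were also longer. Their medians were 3121, 2808 and 1282 bases with an 8mer, only a 7mer and none, against 2740, 2516 and 1003 for all tested rows. The part of length in these shares was not tested. The 8mers of 7 of the 8 genes with an 8mer that were called higher in miR-155 KO than in WT cells are shown first, with the match in capitals and GRCm38 coordinates of the window.
Zfp354c (8mer, chr11:50812306-50812335, - strand): attactccaggAGCATTAAtcagacccttc
Zfp488 (8mer, chr14:33969695-33969724, - strand): ggttgactgtgAGCATTAAgcatatggatt
Zfp329 (8mer, chr7:12805997-12806026, - strand): cataggtattcAGCATTAAtggtcatttct
Zfp710 (8mer, chr7:80091269-80091298, + strand): tgcatctggcaAGCATTAAcaaagatagat
Zfp866 (8mer, chr8:69762612-69762641, - strand): agcctgtggctAGCATTAAacattaaaagg
Zfp952 (8mer, chr17:33005120-33005149, + strand): aaaaaaaattcAGCATTAAaaataatgtaa
Zfp113 (8mer, chr5:138142980-138143009, - strand): atgatgagattAGCATTAAgatggccatga
Zfp113 (8mer, chr5:138140192-138140221, - strand): atctgtgggtaAGCATTAAtcttggctcac
The next 4 genes also hold an 8mer and were not called higher; Zfp326 was called lower.
Zfp326 (8mer, chr5:105915432-105915461, + strand): gaatagcagttAGCATTAAgatggcttaaa
Zfp143 (8mer, chr7:110095034-110095063, + strand): cctgtaatcccAGCATTAAagtcctgatgc
Zfp322a (8mer, chr13:23354830-23354859, - strand): cgatgcaatgaAGCATTAAaaaaaaaaaaa
Zfp518a (8mer, chr19:40917077-40917106, + strand): acagagaagcaAGCATTAAcgatggactca
Zfp518a (8mer, chr19:40917868-40917897, + strand): aaagaacggtaAGCATTAAtttccttgttc
The last 5 windows are the 7mers of the 4 genes with the largest rises in miR-155 KO cells among those with only a 7mer.
Zfp238 (7mer-m8, chr1:177450408-177450436, + strand): aatggccttggAGCATTAtctttagttac
Zfp260 (7mer-m8, chr7:30106047-30106075, + strand): ggatagatcatAGCATTAtatacttccca
Zfp664 (7mer-A1, chr5:124886832-124886860, + strand): cttcctagatgGCATTAAactccattcta
Zfp664 (7mer-m8, chr5:124888227-124888255, + strand): ccacagcgtggAGCATTAgagaaaagcct
Zfp809 (7mer-m8, chr9:22238712-22238740, + strand): aaccctaattaAGCATTAcagaagaactc
Zfp236 and Zfp407 hold an 8mer each whose letters are not shown. A match is a description of the sequence and not a measured site.

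The libraries had an estimated 31.4 to 52.4 M reads behind the RPKM values, so that 1 RPKM of a gene of 2 kb stood for 62.9 to 105 reads. Sfpi1, which encodes PU.1, was at 21.1 to 26.0 RPKM in PU.1 KI, 15.5 to 18.3 in miR-155 KO and 9.73 to 13.2 in WT libraries, with no overlap between genotypes. All 8 B cell markers were above 1 RPKM on average. Of 8 T cell markers only Thy1 was, and of 10 macrophage markers Cd68 and Mpeg1; neutrophil, NK, erythroid and stromal markers were all under 0.1 RPKM. The summed T cell markers came to 36.3 to 43.7 RPKM in PU.1 KI, 68.7 to 78.6 in miR-155 KO and 44.3 to 47.1 in WT libraries, with 5 of the 8 under 0.1 RPKM. Thy1 made nearly all of this sum, with means of 37.9, 70.65 and 44.9 RPKM in these genotypes. The summed macrophage markers came to 17.4 to 21.4 RPKM in PU.1 KI, 9.39 to 10.3 in miR-155 KO and 11.8 to 13.8 in WT libraries. Cd68 and Mpeg1 made nearly all of that sum, while Emr1, at 0.253, 0.738 and 0.200 RPKM in this order, was highest in miR-155 KO cells. The summed plasma cell markers came to 224 to 344, 267 to 406 and 417 to 501 RPKM in the same order of genotypes. Of the plasma cell markers, Igj averaged 132, 153 and 282 RPKM in that order, while Irf4, at 49.5, 60.1 and 37.9 RPKM, had higher means in both mutants, and Sdc1 was at 1.14, 1.69 and 1.43 RPKM. The part of these shifts in the Zfp values was not tested. In bulk libraries, fewer cells of a type and less RNA per cell cannot be told apart. miR-155 KO replicate 5 and WT replicate 1 stood apart from their groups. Without both, 34 Zfp genes were higher and 6 lower in PU.1 KI against WT, and 59 higher and 48 lower in miR-155 KO against WT. The Zfp medians were then 0.05 and 0.02, against 0.05 and -0.09 for all rows. Shares of all rows called are not given for these fits.

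Most Zfp transcripts were rare. The median Zfp gene was at 2.91 RPKM, against 7.50 RPKM for the other tested rows, and 18 genes reached 10 RPKM, 40 lay from 5 to 10, 98 from 2 to 5 and 64 from 1 to 2. The 3 most abundant were Zfp36l1, Zfp36 and Zfp207, at 76.0, 68.3 and 39.2 RPKM over all libraries, and together made 16.5% of the summed Zfp signal. The first 2 are the mRNA-decay factors and the third a spindle protein. The 220 genes together took 0.526% ± 0.00807 of the table's summed RPKM in PU.1 KI (SD, n = 5), 0.549% ± 0.0171 in miR-155 KO (n = 5) and 0.521% ± 0.0144 in WT libraries (n = 4). All 220 were tested, since each passed the filter of at least 1 RPKM in at least 4 libraries, but 11 had a genotype mean below 1 RPKM. Zfp811, Zfp629 and Zfp760 were among these, with WT means below 1 RPKM, and met the mean threshold only through their higher mutant libraries.

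In PU.1 KI cells a minority of Zfp genes differed from WT, and nearly all by little. Zfp811 stood alone past 1.5-fold, though it and Zfp629 are included only through their higher mutant libraries. Zfp629, Zfp524, Zfp238 and Zfp688 followed, and the 6 lower ones fell by 0.21 to 0.29 on the log2 scale. Of 220 genes, 20% were called, against 27.7% of all rows tested. That is, 38 were higher and 6 lower at an adjusted p under 0.05 (limma on log2(RPKM + 0.5), adjusted over all 9627 rows), or 17.3% and 2.73%, against 23.7% higher and 4.03% lower of all rows tested. The median log2 difference of the Zfp genes was 0.07, against 0.08 for all rows. After median-of-ratios scaling the counts were 22 higher and 13 lower and the Zfp median -0.01, and after quantile normalization 19 and 14 with a median of -0.02. The medians of all rows were then -0.006 and -0.014. The shares of all rows called are given on the deposited scale only, so these counts have no such share beside them. On the deposited scale the share called was below that of all rows.

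In miR-155 KO cells about as many Zfp genes were called as not, and they went in both directions. Zfp811, Zfp629, Zfp516, Zfp238, Zfp827 and Zfp760 rose most, and Zfp239, Zfp828, Zfp36l2 and Zfp213 fell most. Against WT, 66 Zfp genes were higher and 46 lower, that is 30.0% and 20.9%, beside 27.2% higher and 35.3% lower of all rows. In both directions together 50.9% of the Zfp genes were called, against 62.5% of all rows. The Zfp median was 0.04, against -0.05 for all rows, and 137 of the 220 lay above the median of all rows. Past 1.5-fold, 10 of the 220 Zfp genes were higher and 2 lower, against 729 and 552 of the 9627 rows tested. Zfp811, Zfp629 and Zfp760 are among the 10 and are included through their higher mutant libraries. The split at this threshold is therefore not a result. Quantile normalization gave 57 higher and 55 lower, with a Zfp median of -0.01, against -0.03 for all rows.

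Set against PU.1 KI cells, miR-155 KO cells had 39 Zfp genes higher and 73 lower, or 17.7% and 33.2%, beside 17.9% and 46.4% of all rows (50.9% called, against 64.3%). This split depends on the scaling. It was 64 higher and 37 lower after median-of-ratios scaling, and 59 higher and 58 lower after quantile normalization. Shares of all rows called are not given for these scalings. The median of all rows was -0.13 on the deposited scale, -0.03 after median-of-ratios scaling and -0.02 after quantile normalization, a shift of over 0.1 under the second. The Zfp median was -0.03, 0.06 and 0.00 on these scales.

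**Figure D1:**
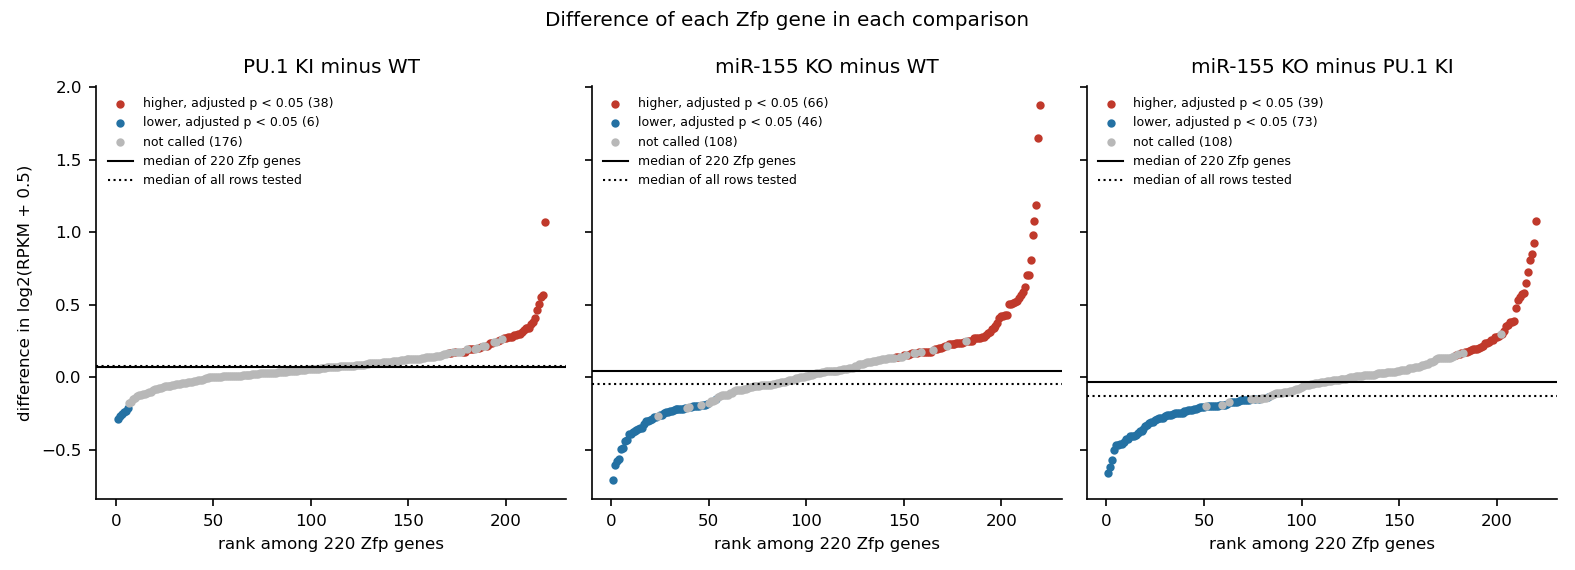
Difference in log2(RPKM + 0.5) of each of the 220 Zfp genes, ranked from lowest to highest in each comparison, coloured by call, with the number called in brackets; the solid line is the median of the Zfp genes and the dotted line that of all rows tested. The upper end of each curve reaches further from 0 than the lower end, and Zfp811 tops both comparisons with WT, at 1.07 in PU.1 KI and 1.88 in miR-155 KO cells. Zfp811, Zfp629 and Zfp760 average under 1 RPKM in WT libraries and are included through their higher mutant libraries, so the length of the upper end is not a result.

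Zfp811 (Ensembl ENSMUSG00000055202, chr17:32934351-32937883, NCBIM37) had 1.48, 1.65, 1.87, 2.26 and 2.62 RPKM in the 5 PU.1 KI libraries. It had 3.59, 3.34, 4.50, 3.93 and 3.56 RPKM in the miR-155 KO libraries and 0.602, 0.553, 0.649 and 0.855 RPKM in the WT libraries. The 3 genotypes did not overlap, and the order was miR-155 KO, PU.1 KI, WT. The log2 difference was 1.07 ± 0.114 (SE) in PU.1 KI against WT (adjusted p = 9.20e-07) and 1.88 ± 0.114 in miR-155 KO against WT (adjusted p = 4.84e-11). On this scale the 0.5 added to each value understates the change of a gene this rare. The WT mean of Zfp811 lay below 1 RPKM, and it is included through its higher mutant libraries. Its rank among the Zfp genes is therefore not a result.

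Zfp629 (chr7:134750545-134758786, NCBIM37) showed the same order. Its RPKM were 1.18, 1.21, 1.44, 1.51 and 1.36 in PU.1 KI, 3.45, 3.26, 3.45, 3.47 and 3.24 in miR-155 KO and 0.556, 0.799, 0.777 and 0.831 in WT libraries. No library of one genotype reached into another, and the log2 differences were 0.57 for PU.1 KI (adjusted p = 1.02e-05) and 1.65 for miR-155 KO (adjusted p = 6.68e-13) against WT. Zfp629 is likewise included through its higher mutant libraries, with a WT mean below 1 RPKM.

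Zfp516, a transcription factor known from brown fat, where it activates Ucp1, had 1.51, 1.54, 1.79, 1.87 and 1.68 RPKM in PU.1 KI libraries. In miR-155 KO libraries it had 3.70, 3.29, 3.60, 3.05 and 3.48 and in WT libraries 1.01, 1.33, 1.39 and 1.18 RPKM. All miR-155 KO libraries lay above all PU.1 KI libraries, which lay above all WT libraries (log2 differences from WT 1.19, adjusted p = 9.36e-11 in miR-155 KO, and 0.34, adjusted p = 0.00228 in PU.1 KI).

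Zfp238, now named Zbtb18, is a BTB zinc finger repressor known from the developing brain. It was the most abundant of these genes, with 14.2, 16.1, 15.7, 17.6 and 16.5 RPKM in PU.1 KI, 22.9, 23.0, 26.1, 25.5 and 22.6 in miR-155 KO and 9.99, 11.1, 11.3 and 12.04 in WT libraries. Again the genotypes were apart, with a log2 difference from WT of 0.51 in PU.1 KI (adjusted p = 1.52e-05) and 1.08 in miR-155 KO cells (adjusted p = 9.21e-11). Its 3′ UTR holds the 7mer-m8 shown above.

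For 4 further genes miR-155 KO cells were high while PU.1 KI cells stayed near WT. Zfp827, whose human counterpart brings the NuRD remodeller to telomeres, had 1.11, 0.902, 1.2998, 1.07 and 1.55 RPKM in PU.1 KI, 2.998, 2.36, 2.96, 2.63 and 2.46 in miR-155 KO and 1.15, 1.05, 1.05 and 1.18 in WT libraries. The PU.1 KI and WT libraries overlapped (0.06, adjusted p = 0.667), and miR-155 KO libraries were all higher (0.98, adjusted p = 2.42e-08). Zfp260, known as a regulator of cardiac genes, had 3.04, 2.66, 3.05, 3.10 and 3.07 RPKM in PU.1 KI, 4.50, 4.47, 5.66, 5.71 and 4.64 in miR-155 KO and 3.12, 2.71, 2.89 and 2.72 in WT libraries. Its log2 difference from WT was 0.05, adjusted p = 0.643 in PU.1 KI and 0.70, adjusted p = 1.50e-07 in miR-155 KO cells, whose 5 libraries were above all others.

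Zfp809, a KRAB protein that silences retroviral DNA in mouse embryonic stem cells, averaged 5.11 ± 0.704 RPKM in PU.1 KI, 7.28 ± 0.736 in miR-155 KO and 4.74 ± 0.283 in WT libraries (SD, n = 5, 5 and 4). It was higher in miR-155 KO than in WT cells (0.57, adjusted p = 1.52e-05), and PU.1 KI did not pass (0.09, adjusted p = 0.481). Zfp281, a transcription factor of pluripotent cells, averaged 5.84 ± 0.319, 7.17 ± 0.330 and 5.29 ± 0.393 RPKM in the same genotypes, and was higher in miR-155 KO cells (0.41, adjusted p = 6.54e-06). In PU.1 KI cells Zfp281 was at 0.13, adjusted p = 0.1, and passed only without PU.1 KI replicate 1 or without WT replicate 4 (adjusted p = 0.0409 and 0.0367).

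Zfp760 and Zfp219 were higher in miR-155 KO cells, and less firmly so in PU.1 KI cells. For Zfp219 the miR-155 KO and WT libraries overlapped, and Zfp760 is included through its higher mutant libraries. Zfp760 averaged 1.18 ± 0.103 RPKM in PU.1 KI, 1.97 ± 0.300 in miR-155 KO and 0.899 ± 0.0728 in WT libraries (0.81, adjusted p = 6.92e-08 in miR-155 KO against WT). Its PU.1 KI difference (0.26, adjusted p = 0.0223) failed without WT replicate 2 or 4 (adjusted p = 0.074 and 0.05004) and after either scaling (0.0738 and 0.197). Zfp219, a partner of Sox9 in cartilage, averaged 3.47 ± 0.705, 4.34 ± 0.618 and 2.52 ± 0.801 RPKM (0.71, adjusted p = 0.000365 in miR-155 KO against WT). Its PU.1 KI difference (0.41, adjusted p = 0.0425) failed without WT replicate 1, 2 or 4, PU.1 KI replicate 2, 3 or 4, or miR-155 KO replicate 1 or 3, with adjusted p from 0.0513 to 0.174, and after median-of-ratios scaling or quantile normalization (0.0918 and 0.109), in a fit of 2 genotypes only (0.05002) and with no filter on low values (0.123). Zfp219 overlaps Arhgef40 on the other strand, which was at 0.0896 RPKM.

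Zfp524, Zfp688 and Zfp341 were higher in PU.1 KI cells, with lower means in miR-155 KO cells. Zfp524 had 5.16, 5.09, 5.78, 5.04 and 4.70 RPKM in PU.1 KI, 4.59, 4.41, 5.32, 4.14 and 4.87 in miR-155 KO and 2.57, 3.86, 4.15 and 2.99 in WT libraries (0.56, adjusted p = 0.000329 in PU.1 KI, and 0.42, adjusted p = 0.00106 in miR-155 KO). Of the 50-base words of its transcript, 46.0% occur in another annotated transcript, Gm44973, so reads could be shared. Zfp688 averaged 3.57 ± 0.325, 2.83 ± 0.407 and 2.49 ± 0.580 RPKM (0.46, adjusted p = 0.00435 in PU.1 KI, and 0.17, adjusted p = 0.201 in miR-155 KO). Zfp341, whose human counterpart drives transcription of STAT3, averaged 2.01 ± 0.243, 1.59 ± 0.0552 and 1.42 ± 0.197 RPKM (0.38, adjusted p = 0.00111 in PU.1 KI). In miR-155 KO cells Zfp341 was at 0.13, adjusted p = 0.171, and passed only without WT replicate 2 (adjusted p = 0.0484).

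Among genes that fell, Zfp239 was the lowest in miR-155 KO cells. It had 1.61, 1.99, 1.60, 1.79 and 1.95 RPKM in PU.1 KI, 0.997, 1.12, 1.202, 1.07 and 1.37 in miR-155 KO and 2.02, 2.25, 2.22 and 2.31 in WT libraries. The 3 genotypes did not overlap, in the order opposite to that of Zfp811, with log2 differences from WT of -0.24 in PU.1 KI (adjusted p = 0.0193) and -0.71 in miR-155 KO (adjusted p = 1.09e-07). The smaller of these failed without WT replicate 2 or 4 or without PU.1 KI replicate 3 (adjusted p = 0.051, 0.0514 and 0.0567).

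Zfp828, now named Champ1, is needed for chromosomes to attach to the spindle. It had 9.08, 10.1, 10.9, 12.6 and 11.3 RPKM in PU.1 KI, 6.31, 6.54, 6.50, 6.78 and 8.16 in miR-155 KO and 10.1, 10.497, 10.51 and 11.6 in WT libraries. The miR-155 KO libraries were all lower (-0.60, adjusted p = 3.45e-06), while PU.1 KI and WT libraries overlapped (0.01, adjusted p = 0.928). Zfp142, Zfp213 and Zfp282 were lower in miR-155 KO cells too, at -0.49, -0.56 and -0.43 against WT, and at 0.01 each in PU.1 KI against WT, where none passed. For Zfp213 the miR-155 KO libraries (1.05 to 1.79 RPKM) overlapped the WT libraries (1.75 to 2.41 RPKM). Zfp932 and Zfp472 fell in both mutants, at -0.25 and -0.23 in PU.1 KI and at -0.44 and -0.39 in miR-155 KO cells; 45.2% of the words of Zfp932 occur in other transcripts, mostly Gm15446. Zfp956 fell in both as well, at -0.29 and -0.26. Zfp944 fell in PU.1 KI cells (-0.26, adjusted p = 0.0125) and did not pass in miR-155 KO cells (-0.13, adjusted p = 0.134), except without miR-155 KO replicate 4 (adjusted p = 0.0484).

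**Figure D2:**
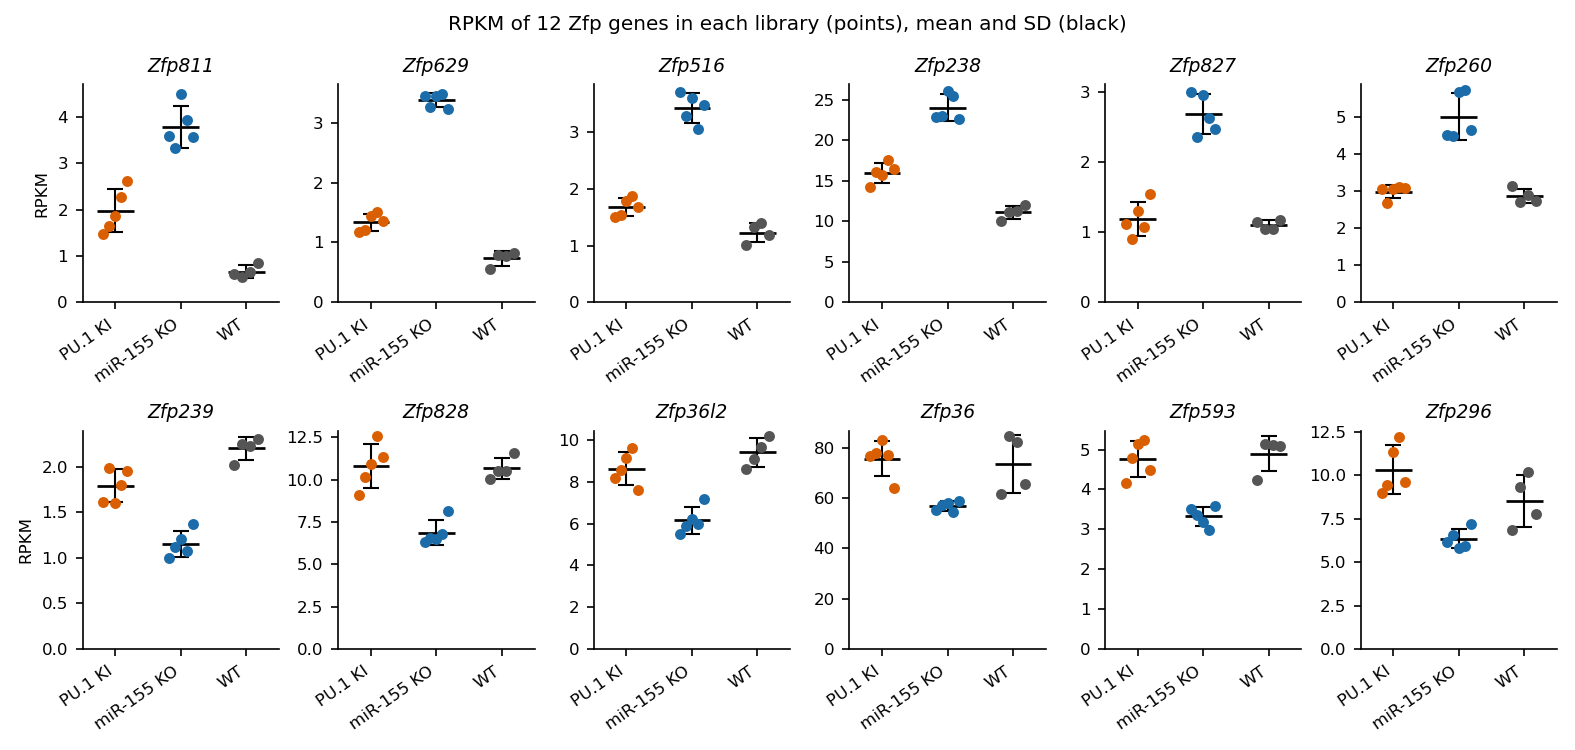
RPKM of 12 Zfp genes in each library, with the mean (long bar) and SD (capped bar) per genotype, in 5 PU.1 KI, 5 miR-155 KO and 4 WT libraries; each axis starts at 0. In the upper row the miR-155 KO libraries are highest for every gene; in the lower row they are lowest for all but Zfp296, where they overlap WT. PU.1 KI libraries are intermediate for Zfp811, Zfp629, Zfp516, Zfp238 and Zfp239.

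The CCCH genes did not move together. Zfp36 (tristetraprolin), which shortens the life of cytokine mRNAs, had 76.8, 77.8, 82.9, 76.9 and 63.8 RPKM in PU.1 KI, 55.0, 57.3, 58.1, 54.2 and 58.9 in miR-155 KO and 61.7, 84.5, 82.3 and 65.6 in WT libraries. It was lower in miR-155 KO cells (-0.36, adjusted p = 0.00153), all 5 of whose libraries were below the WT libraries, and did not pass in PU.1 KI cells (0.05, adjusted p = 0.721). Zfp36l2 had 8.19, 8.56, 9.16, 9.63 and 7.62 RPKM in PU.1 KI, 5.49, 5.88, 6.23, 5.97 and 7.19 in miR-155 KO and 8.63, 9.10, 9.69 and 10.2 in WT libraries. It was lower in miR-155 KO cells (-0.58, adjusted p = 2.22e-06); in PU.1 KI cells it was at -0.12, adjusted p = 0.263, and passed after median-of-ratios or quantile scaling (-0.20 each, adjusted p = 0.00945 and 0.00947).

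Zfp36l1, needed with Zfp36l2 for early B cell development, had 65.6, 82.1, 89.6, 88.2 and 75.3 RPKM in PU.1 KI, 74.6, 78.9, 77.7, 72.6 and 83.8 in miR-155 KO and 58.2, 72.8, 79.7 and 65.4 in WT libraries. The ranges overlapped, and neither mutant passed against WT (0.21, adjusted p = 0.0884 in PU.1 KI, and 0.17, adjusted p = 0.106 in miR-155 KO). It was called higher in miR-155 KO cells after median-of-ratios scaling (0.19, adjusted p = 0.0263) and quantile normalization (0.28, adjusted p = 0.00141), and without WT replicate 3 (adjusted p = 0.0296). In PU.1 KI cells it was called higher without WT replicate 3 or PU.1 KI replicate 1 (adjusted p = 0.0286 and 0.0157). Set against PU.1 KI cells, Zfp36l1 was at -0.04, adjusted p = 0.691 in miR-155 KO cells, and higher after quantile normalization (0.17, adjusted p = 0.0287). Of 22 genes of the CCR4-NOT and mRNA decay machinery that these proteins recruit, 4 were higher and none lower in PU.1 KI against WT, and 4 were higher and 4 lower in miR-155 KO against WT, beside 23.7% higher and 4.03% lower, and 27.2% higher and 35.3% lower, of all rows in these comparisons. Cnot7, a deadenylase subunit, was at -0.31, adjusted p = 0.000622 and Tnks1bp1, a CCR4-NOT partner, at 0.60, adjusted p = 1.69e-06 in miR-155 KO cells.

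Of 14 members known to act on RNA, ribosomes, the spindle or ubiquitin, 2 were higher and 1 lower in PU.1 KI against WT, and 4 were higher and 5 lower in miR-155 KO against WT, where the shares were near those of all rows (27.2% higher and 35.3% lower; 23.7% and 4.03% in PU.1 KI). In PU.1 KI cells 2 were lower after either scaling. Those that fell in miR-155 KO cells were Zfp593 (-0.50), whose yeast counterpart Bud20 helps export the large ribosomal subunit, Zfp706 (-0.38), Zfp207 (-0.24), a spindle protein that binds Bub3, Zfp326 (-0.22), which links splicing to RNA polymerase II, and Zfp330 (-0.20). Zfp593 had 4.15, 4.78, 5.13, 5.23 and 4.49 RPKM in PU.1 KI, 3.50, 3.36, 3.19, 2.99 and 3.58 in miR-155 KO and 4.23, 5.15, 5.12 and 5.10 in WT libraries, and Zfp207 averaged 41.6 ± 2.01, 35.02 ± 2.35 and 41.4 ± 2.03 RPKM. Zfp326 was lower in PU.1 KI cells too (-0.21, adjusted p = 0.00822), with every library of either mutant below every WT library.

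Those that rose in miR-155 KO cells were Zfp385a (0.52, adjusted p = 0.000305), an RNA-binding partner of p53, Zfp598, Zfp318 and Zfp106. Zfp318 is the factor that lets B cells make IgD besides IgM from 1 transcript. It had 2.58, 2.75, 3.01, 2.85 and 3.14 RPKM in PU.1 KI, 3.11, 2.89, 3.47, 3.60 and 2.84 in miR-155 KO and 2.61, 2.66, 2.83 and 2.44 in WT libraries. It was higher in miR-155 KO cells (0.23, adjusted p = 0.00887), and PU.1 KI did not pass (0.10, adjusted p = 0.306). Zfp598, the ubiquitin ligase that marks collided ribosomes, was at 0.25, adjusted p = 0.0187 and lost its call without WT replicate 1 (adjusted p = 0.0846). In PU.1 KI cells Zfp598 was at 0.20, adjusted p = 0.0952 and passed without PU.1 KI replicate 1 (adjusted p = 0.0454). Zfp106, an RNA-binding protein needed by motor neurons, was at 0.18, adjusted p = 0.0299 and lost its call without WT replicate 2 or 3 or miR-155 KO replicate 3, 4 or 5 (adjusted p from 0.06 to 0.0973).

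Zfp622, which acts in maturation of the large ribosomal subunit, was higher in PU.1 KI cells. It had 14.7, 16.4, 16.7, 17.3 and 16.6 RPKM in PU.1 KI, 14.4, 15.3, 14.7, 14.2 and 12.8 in miR-155 KO and 12.2, 12.6, 12.8 and 14.2 in WT libraries. All 5 PU.1 KI libraries were above the WT libraries (0.32, adjusted p = 0.000667). In miR-155 KO cells it was at 0.13, adjusted p = 0.0693, and passed after either scaling (adjusted p = 0.0249 and 0.00616) and without WT replicate 4, PU.1 KI replicate 1 or miR-155 KO replicate 5 (0.0253, 0.0498 and 0.0168). Zfp385a was higher in PU.1 KI cells as well (0.37, adjusted p = 0.0132), but not without WT replicate 1 (adjusted p = 0.0652). Zfp91, a ubiquitin ligase of the NF-κB pathway, passed against WT in neither mutant (0.07, adjusted p = 0.452 in PU.1 KI, and -0.09, adjusted p = 0.208 in miR-155 KO).

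Of 25 members grouped from textbook knowledge as other regulators of transcription and chromatin, 5 were higher and none lower in PU.1 KI against WT (2 and none after median-of-ratios scaling, and 2 and 1 after quantile normalization). In miR-155 KO against WT, 10 were higher and 1, Zfp592 (-0.20), was lower. Zfp191, now named Zfp24, belongs with these regulators but is not among the 25. Under its older symbol it was counted with the other members below. Zfp191 was lower in miR-155 KO cells (-0.19, adjusted p = 0.00459) and at -0.02 in PU.1 KI cells, both against WT. Of all rows, 23.7% were higher and 4.03% lower in PU.1 KI, and 27.2% higher and 35.3% lower in miR-155 KO cells; the share of these members higher in PU.1 KI cells was near that of all rows. Besides Zfp516, Zfp238, Zfp219 and Zfp281, the higher ones in miR-155 KO cells included Zfp710 (0.43), Zfp277 (0.32), Zfp609 (0.24) and Zfp644 (0.20). Zfp143, which binds promoters and the anchors of chromatin loops, was at 0.19, adjusted p = 0.0212 in PU.1 KI and 0.06, adjusted p = 0.434 in miR-155 KO cells. Its PU.1 KI call was lost without WT replicate 2 or 3 or PU.1 KI replicate 3 or 5 (adjusted p from 0.0504 to 0.0759) and after either scaling (0.142 and 0.160).

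Zfp148, which binds GC-rich promoters, was at 0.16, adjusted p = 0.046 in miR-155 KO against WT, and lost that call without WT replicate 2, 3 or 4, PU.1 KI replicate 1 or 3, or miR-155 KO replicate 3 or 4 (adjusted p from 0.0501 to 0.150), after quantile normalization (0.0545), in a fit of 2 genotypes only (0.0572) and with no filter on low values (0.0657). Zfp384 passed against WT in neither mutant (0.04 and -0.04), nor did Zfp608 (0.00 and 0.02). Zfp410, which in human and mouse cells drives transcription of Chd4, was at 0.08, adjusted p = 0.354 in PU.1 KI and -0.09, adjusted p = 0.207 in miR-155 KO cells. Zfp335, a chromatin factor needed by T cells and neurons, was at 0.18, adjusted p = 0.12 in PU.1 KI and -0.14, adjusted p = 0.155 in miR-155 KO cells. It passed in PU.1 KI cells without WT replicate 3 (adjusted p = 0.0386) and in miR-155 KO cells without WT replicate 1 (adjusted p = 0.0287). Zfp335 overlaps Pcif1 on the other strand, which was at 6.10 RPKM. Zfp408, the member nearest to Sfpi1 and 0.528 Mb from it, was at 0.01, adjusted p = 0.958 in PU.1 KI and -0.24, adjusted p = 0.00143 in miR-155 KO cells.

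The other 178 members, most of them C2H2 genes with no well-known role, had 31 higher and 5 lower in PU.1 KI against WT, and 52 higher and 38 lower in miR-155 KO against WT, beside 23.7% and 4.03%, and 27.2% and 35.3%, of all rows. After median-of-ratios scaling the PU.1 KI counts were 18 and 10, and after quantile normalization 15 and 10, and the miR-155 KO counts were then 40 higher and 46 lower. The members at the threshold had low levels and small differences. Zfp365 averaged 1.195 RPKM in PU.1 KI, 0.770 in miR-155 KO and 1.06 in WT libraries (-0.30, adjusted p = 0.00521 in miR-155 KO). Zfp955a was at -0.28, adjusted p = 0.0116 in miR-155 KO cells, and lost its call without WT replicate 1 (adjusted p = 0.0503). Zfp945 was at 0.17, adjusted p = 0.0431 in PU.1 KI and 0.15, adjusted p = 0.0376 in miR-155 KO cells. The first of these was lost without each of 11 libraries in turn (adjusted p from 0.0528 to 0.0994) and the second without each of 6 (adjusted p from 0.0527 to 0.111), and in a fit of 2 genotypes only (0.051 and 0.0626). The PU.1 KI call was also lost after median-of-ratios scaling and quantile normalization (0.198 and 0.542), and after the second Zfp945 was at -0.05 in miR-155 KO cells.

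Set directly against PU.1 KI cells, the miR-155 KO cells were furthest above in Zfp629 (1.08, adjusted p = 1.59e-10), Zfp827 (0.92, adjusted p = 3.19e-08), Zfp516 (0.85, adjusted p = 6.16e-09) and Zfp811 (0.81, adjusted p = 3.06e-06). They were furthest below in Zfp296 (-0.66, adjusted p = 8.94e-06), Zfp828 (-0.62, adjusted p = 1.50e-06), Zfp213 (-0.57, adjusted p = 7.49e-05) and Zfp142 (-0.50, adjusted p = 1.29e-06). Zfp296 had 9.02, 9.45, 11.4, 12.2 and 9.65 RPKM in PU.1 KI, 6.17, 6.58, 5.83, 5.96 and 7.20 in miR-155 KO and 6.87, 9.33, 10.2 and 7.79 in WT libraries, so PU.1 KI libraries reached above WT and miR-155 KO libraries mostly below. Against WT it was at -0.39, adjusted p = 0.00253 in miR-155 KO and 0.27, adjusted p = 0.057 in PU.1 KI cells; the PU.1 KI value passed without WT replicate 2 or 3, PU.1 KI replicate 1 or miR-155 KO replicate 5 (adjusted p from 0.0139 to 0.0493). Zfp629, Zfp516 and Zfp811 thus differed between the mutants as well as from WT.

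Zfp genes cluster on the chromosomes: 47 of the 220 lie on chromosome 7 (21.4%, against 7.38% of all tested rows) and 30 on chromosome 17 (13.6%, against 5.32%). There were 8 runs of at least 5 members with gaps under 0.5 Mb, which hold 63 members. Members of a run differed from each other. Zfp811 lies in a run of 10 on chromosome 17, in which its neighbours Zfp871 and Zfp799 were at 0.18 and 0.27 in PU.1 KI and 0.20 and 0.24 in miR-155 KO cells. Zfp870 was at 0.02 and 0.01 in these comparisons, and Zfp472, further along, fell in both mutants. In all, 4 of the run were higher and 1 lower in PU.1 KI cells (2 and 1 after quantile normalization), and 6 higher and 2 lower in miR-155 KO cells. Of all rows, 23.7% were higher and 4.03% lower in PU.1 KI, and 27.2% higher and 35.3% lower in miR-155 KO cells.

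Zfp629 lies in a run of 9 on chromosome 7, of which 3 were higher in PU.1 KI cells, and 2 were higher and 2 lower in miR-155 KO cells. In miR-155 KO cells Zfp629 was at 1.65, Zfp768 at 0.51 and Zfp764 at -0.37. Zfp760 was at 0.81 in a run of 11 on chromosome 17, where 1 other gene, Zfp945, was higher in miR-155 KO cells. In the run of 5 that ends with Zfp36 on chromosome 7, Zfp60, Zfp626, Zfp607 and Zfp780b were all higher in miR-155 KO cells (0.23 to 0.30) while Zfp36, of another family, was lower. After quantile normalization 1 of the 5 was higher and 1 lower. On chromosome 6, Zfp282, Zfp956 and Zfp746 were lower in miR-155 KO cells among 6 neighbours and none was higher. These run counts stand beside 23.7% higher and 4.03% lower of all rows in PU.1 KI, and 27.2% and 35.3% in miR-155 KO cells. The shares of words in other transcripts were small for most members, with a median of 0.188%, but 17 of 210 shared over 20%, and those could exchange reads with a copy.

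**Figure D3:**
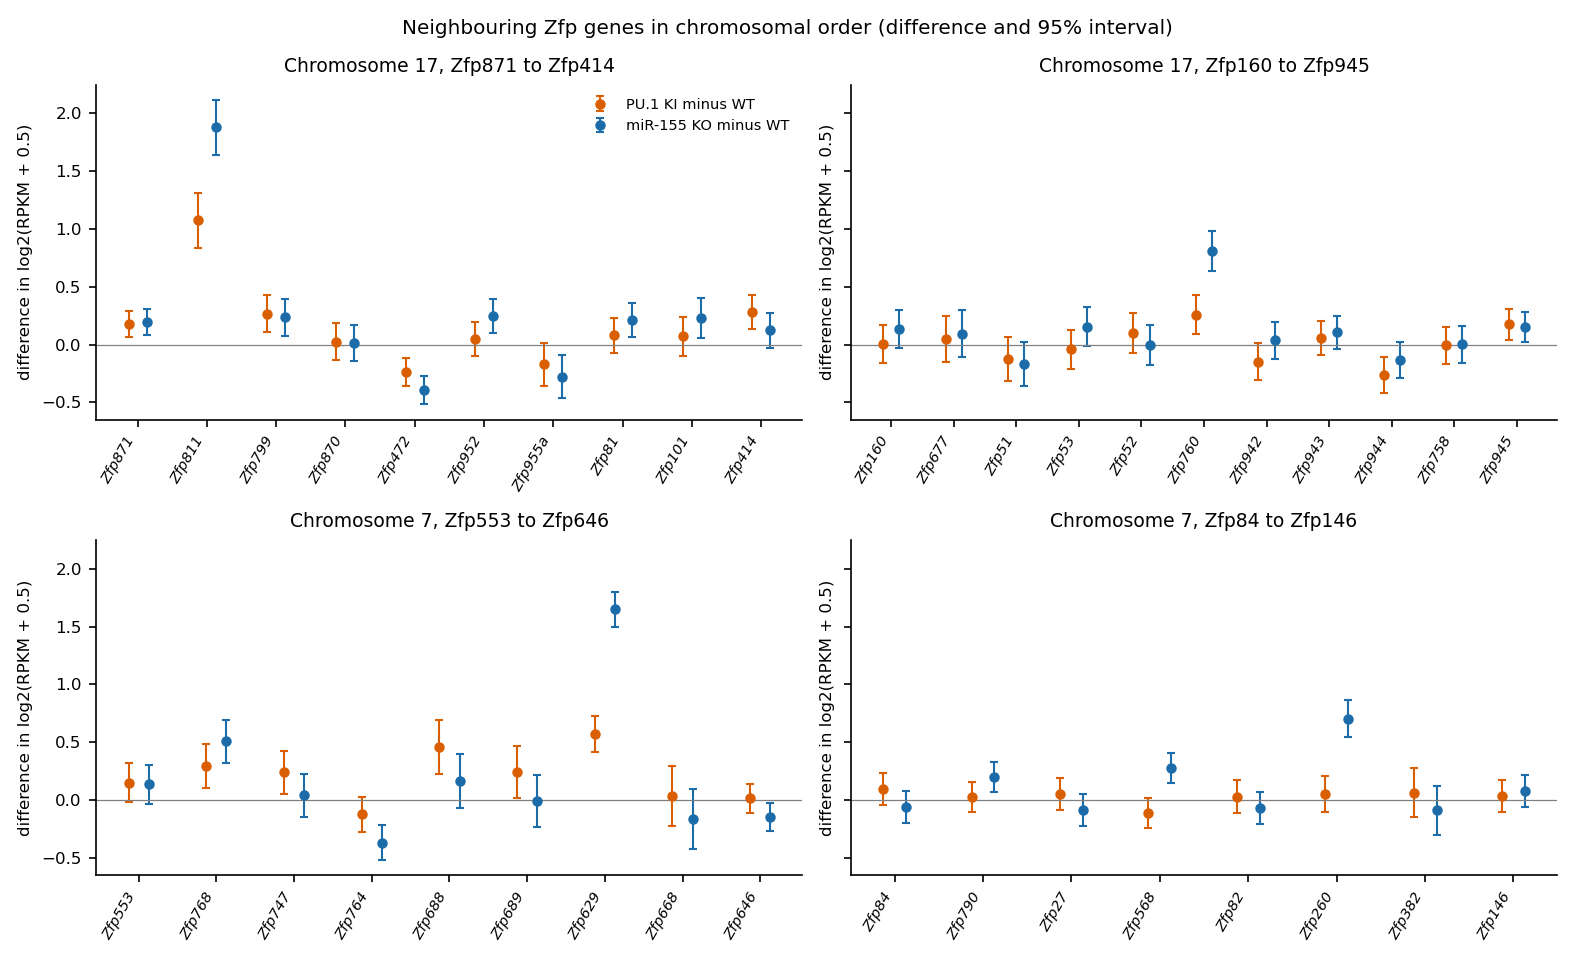
Difference from WT in log2(RPKM + 0.5), with the 95% interval of the limma fit, for PU.1 KI (orange) and miR-155 KO (blue), of the members of 4 chromosomal runs in their order along the chromosome. Zfp811, Zfp760, Zfp629 and Zfp260 each stand above their neighbours in miR-155 KO cells, at 1.88, 0.81, 1.65 and 0.70. The 4 runs are drawn because they hold these genes, which were among the largest rises, so this standing is not a result. Zfp811, Zfp760 and Zfp629 are also included through their higher mutant libraries.

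Members with a miR-155 seed match in the 3′ UTR were more often higher in miR-155 KO cells than members without one, and so were all rows tested. Of the 13 members with an 8mer, 8 were higher and 1 lower in miR-155 KO against WT (61.5% higher, median 0.17). Of 30 with only a 7mer, 15 were higher and 3 lower (50%, median 0.17), and of 166 with no match, 41 were higher and 40 lower (24.7%, median 0.01). Over all tested rows the shares called higher were 53.5% of 314 with an 8mer, 40.5% of 969 with only a 7mer and 24.7% of 8117 with none, with medians of 0.19, 0.07 and -0.07. Members with a match had longer 3′ UTRs, with medians of 3121 bases for an 8mer, 2808 for a 7mer and 1282 for none; the part of length was not tested. The difference between members with and without a match was not tested, and for members alone the counts are few. Without the libraries that stand apart, 7, 14 and 36 members with an 8mer, a 7mer and no match were higher, and after quantile normalization 7, 12 and 37.

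Among the 8mer genes, Zfp354c rose by 0.51, with 1.99, 2.19, 2.38, 2.29 and 2.49 RPKM in PU.1 KI, 3.01, 3.001, 3.60, 3.50 and 2.51 in miR-155 KO and 2.14, 1.91, 2.04 and 2.03 in WT libraries. All miR-155 KO libraries were above all others (adjusted p = 1.82e-05 against WT). Zfp488, a transcription factor of oligodendrocytes, had 6.82, 5.64, 6.20, 4.59 and 6.38 RPKM in PU.1 KI, 7.57, 7.09, 8.13, 8.86 and 7.45 in miR-155 KO and 6.69, 4.92, 5.29 and 4.64 in WT libraries (0.51, adjusted p = 0.000247 in miR-155 KO against WT). Zfp329 and Zfp710 rose by 0.43 and 0.43, and Zfp866, Zfp952, Zfp113 and Zfp236 by 0.17 to 0.27. Zfp866 overlaps Atp13a1 on the other strand, at 22.3 RPKM, and Gm20422 on the same strand, at 1.49 RPKM, so its reads cannot be told apart from theirs. Zfp143, Zfp322a, Zfp407 and Zfp518a did not pass (0.06, -0.02, -0.12 and 0.08), and Zfp326, which also holds an 8mer, fell.

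In PU.1 KI against WT, 2 of 13 members with an 8mer, 4 of 30 with a 7mer and 30 of 166 with none were higher, that is 15.4%, 13.3% and 18.1%. Over all rows those shares were 19.4%, 19.4% and 24.7%. After median-of-ratios scaling the member counts were none, 2 and 19, and after quantile normalization none, 1 and 18. The members that rose most in miR-155 KO cells mostly had no match, as did 166 of the 209 members searched (79.4%). Zfp811, Zfp629, Zfp516, Zfp827, Zfp760 and Zfp219 held neither an 8mer nor a 7mer in the 3′ UTR searched, while Zfp238 and Zfp260 held a 7mer.

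**Figure D4:**
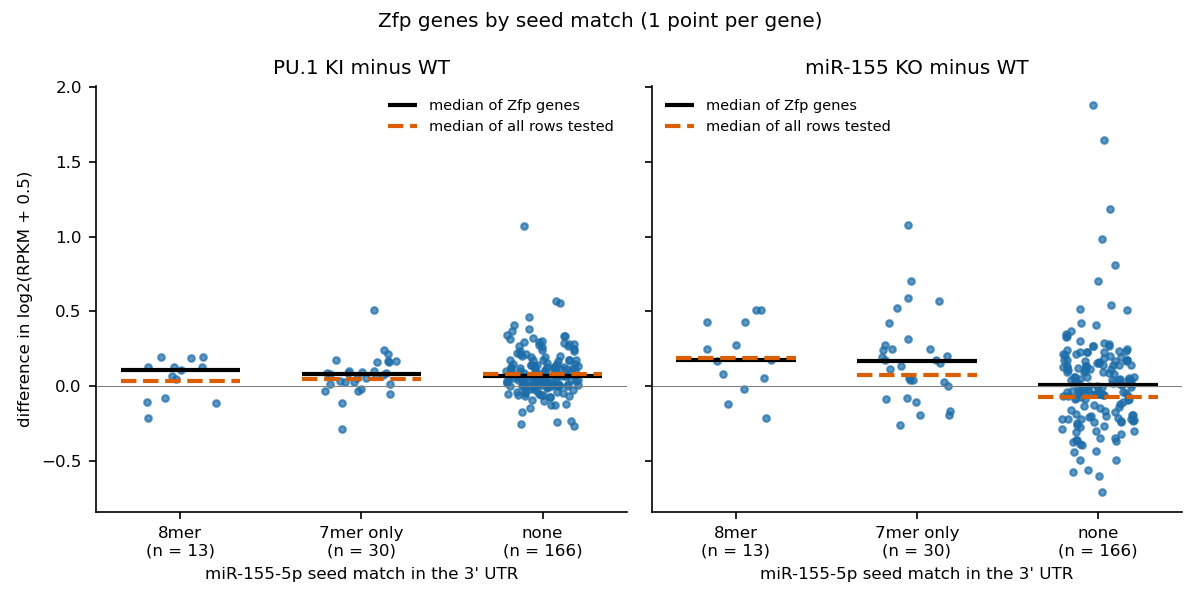
Difference from WT in log2(RPKM + 0.5) of the 209 Zfp genes with an annotated 3′ UTR, by seed match for miR-155-5p, in PU.1 KI (left) and miR-155 KO (right); each point is 1 gene, the black bar is the median of the Zfp genes and the dashed orange bar that of all rows tested. In miR-155 KO cells the medians are 0.17 with an 8mer, 0.17 with only a 7mer and 0.01 with none. The genes furthest up have no match, as do 166 of the 209 genes.

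KRAB zinc finger proteins act through a corepressor complex, and the genes of this complex were tested beside the Zfp genes. Of 23 tested genes of this complex, 3 were higher and 13 lower in miR-155 KO against WT (3 and 12 after median-of-ratios scaling, and 3 and 11 after quantile normalization), and 3 were higher and none lower in PU.1 KI against WT. Of all rows, 27.2% were higher and 35.3% lower in the first comparison, and 23.7% higher and 4.03% lower in the second. The PU.1 KI counts were 3 and 4 after median-of-ratios scaling, and 2 and 4 after quantile normalization. Lower in miR-155 KO cells were Daxx (-0.62), a histone chaperone, Uhrf1 (-0.50) and Dnmt1 (-0.36), which maintain DNA methylation, Hdac1 (-0.40) and Trim28 (-0.19, adjusted p = 0.0259), the scaffold that binds the KRAB domain. Trim28 averaged 67.4 ± 5.44 RPKM in PU.1 KI, 57.6 ± 4.96 in miR-155 KO and 65.5 ± 3.35 in WT libraries. Setdb1, the histone methyltransferase of the complex, was at -0.05, adjusted p = 0.519. The 3 higher genes were Chd3, Atf7ip (0.44) and Dnmt3a (0.15). Chd3, a NuRD remodeller, had 12.6 ± 0.952 RPKM in PU.1 KI, 26.6 ± 1.37 in miR-155 KO and 11.8 ± 0.644 in WT libraries (1.13, adjusted p = 8.86e-12 in miR-155 KO against WT).

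Other C2H2 families are given by their counts, beside 23.7% higher and 4.03% lower of all rows in PU.1 KI against WT, and 27.2% higher and 35.3% lower in miR-155 KO against WT. Of 32 tested ZBTB genes, 11 were higher and 1 lower in PU.1 KI against WT, and 12 higher and 2 lower in miR-155 KO against WT; the PU.1 KI counts were 8 and 1 after median-of-ratios scaling, and 6 and 1 after quantile normalization. Of 12 tested SCAN zinc finger genes, 7 and 5 were higher in these comparisons and none was lower (5 and 8 after median-of-ratios scaling). Of 19 Ikaros, Krüppel-like and other named C2H2 factors, none was higher and 1 lower in PU.1 KI cells (3 lower after either scaling), and 6 were higher and 5 lower in miR-155 KO cells; Bcl6, the germinal centre repressor, was at -0.77, adjusted p = 2.68e-09. No difference between families was tested.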

How the data were processed

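RNA was measured in 14 libraries of stimulated mouse B cells: 5 PU.1 KI, 5 miR-155 KO and 4 WT. The authors deposited RPKM per gene for each library, in 1 table with NCBIM37 coordinates; Trim Galore and TopHat are named per the submitters' processing notes, without versions. Neither the counter, the annotation nor the use of strand is stated in those notes or the labels, so a gene and an overlapping antisense gene cannot be told apart. The deposited RPKM are not counts. Depth was estimated from the steps between low values: 66.4% to 72.8% of the low values came out whole within 0.01 read, too few to recover counts, so no count model was run.

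Rows at 1 RPKM or more in at least 4 libraries (9627) were tested by limma 3.58.1 under R 4.3.3, after adding 0.5 RPKM and taking log2, in 1 fit of all 14 libraries with a mean for each genotype, a trend in the variance and Benjamini-Hochberg adjustment over all these rows. The call threshold was an adjusted p of 0.05. The test was checked on simulated data with independent noise, few changed rows and no shift between libraries, unlike the real data. There, 25 to 30 of 50 changes of 1.2-fold and 47 to 48 of 50 changes of 1.5-fold were recovered in each comparison. A small difference can therefore fail to pass. The p-values measure the spread between these libraries. Seed matches were searched in GENCODE M21 3′ UTRs on GRCm38.

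Members described singly were those with the largest called differences in each direction and comparison, the 3 of highest mean, those within 5 Mb of Sfpi1, those next to the mean threshold, and a list of well-known members. In the table, 1 further Zfp gene is not reported here. Genes outside this rule, such as neighbours in a run and genes with a seed match, were chosen after their values were seen. The members and lists were chosen with earlier results of these data known. Alternatives were other pseudocounts, filters and scalings, the replicate number as a block, 2 genotypes only, and leaving out each library; leaving out both libraries that stand apart was chosen after seeing the data. The miR-155 transcript itself was not analysed here, so the knockout was not checked by its target. Whether members hold a KRAB domain was not analysed here.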

Additional observations from a re-analysis of the deposited data

Results flagged for a closer look

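Of 138 groups of libraries examined, for the 45 named Zfp genes and the median over all Zfp genes in each of 3 genotypes, 7 had 1 library far from the others, where chance gives 6.9 (1 in 20). In miR-155 KO cells, replicate 5 was the highest for Zfp207, at 39.08 RPKM against 33.07 to 34.7 RPKM in the other libraries of that genotype. The same library was the highest for Zfp384, at 8.634 RPKM against 7.483 to 7.8 RPKM, and for Zfp828, at 8.158 RPKM against 6.307 to 6.782 RPKM. WT replicate 1 was the lowest WT library for Zfp593, at 4.228 RPKM against 5.098 to 5.149 RPKM, and for Zfp608, at 8.715 RPKM against 9.457 to 9.549 RPKM. PU.1 KI replicate 2 was the lowest for Zfp260, at 2.665 RPKM against 3.043 to 3.099 RPKM. PU.1 KI replicate 5 was the highest for Zfp944, at 3.034 RPKM against 2.453 to 2.603 RPKM. Replicate 5 of miR-155 KO and replicate 1 of WT are the 2 libraries that stood apart from their groups.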

How the results depend on the processing

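The counts of Zfp genes called depended most on scaling and on the filter. In PU.1 KI against WT, 38 were higher and 6 lower; there were 12 and 1 with a filter of 5 RPKM (64 Zfp genes left), 22 and 13 after median-of-ratios scaling (median -0.00905) and 19 and 14 after quantile normalization (median -0.021). In miR-155 KO against WT, 66 higher and 46 lower became 17 and 16 with a filter of 5 RPKM, and the median was -0.011 after quantile normalization. In miR-155 KO against PU.1 KI, 39 higher and 73 lower became 9 and 27 with that filter (median -0.090), 64 and 37 after median-of-ratios scaling (median 0.058), and 59 higher after quantile normalization. The filter leaves fewer genes to test. For the scalings the cause was not tested, and no shares of all rows called are given under these settings.

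After quantile normalization 3 values of named genes changed sign where the gene was called in at least 1 of the fits compared. These were Zfp945 in miR-155 KO against WT (-0.051), and Zfp36l1 (0.17) and Zfp91 (0.025) in miR-155 KO against PU.1 KI. Changes of sign in values called in neither fit were not counted. Leaving out 1 library at a time gave 29 to 45 higher, 5 to 6 lower and medians of 0.053 to 0.087 in PU.1 KI against WT. It gave 52 to 66, 39 to 46 and 0.012 to 0.059 in miR-155 KO against WT, and 34 to 43, 58 to 76 and -0.056 to -0.013 in miR-155 KO against PU.1 KI. Of 45 named genes, 19, 34 and 31 were called in these comparisons, and 13, 29 and 27 stayed called without each library in turn.

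Replicate numbers did not pair the libraries: 7 of 13 same-numbered pairs had a correlation over 0.1 (-0.387 to 0.466), and 4 of 14 libraries matched best with their own number. With the replicate block the counts were 39 and 6, 63 and 45, and 41 and 74, with medians of 0.062, 0.033 and -0.033. The block ended the calls of Zfp760 in PU.1 KI against WT (0.25, adjusted p = 0.0501) and Zfp148 in miR-155 KO against WT (0.14, adjusted p = 0.054), and added those of Zfp622 in miR-155 KO against WT (0.15, adjusted p = 0.0331) and Zfp219 in miR-155 KO against PU.1 KI (0.30, adjusted p = 0.0478), by limma. RPKM near 1 rests on 62.9 to 105 reads for a gene of 2 kb, which limits the low genes.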
